A study of Mus musculus with 4 samples.

Results

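The cytosolic heat shock genes were followed on 4 Affymetrix arrays of murine embryonic stem cells. The group was a list of 10 genes, drawn up with the differences between labelled induced and uninduced cells on these arrays already known: Hspa1a, Hspa1b, Hspa8, Hsph1, Dnajb1, Hsp90aa1, Hsp90ab1, Hspb1, Hsf1 and Bag3. All probe sets whose only annotated gene was a listed one were taken, which gave 20 probe sets for 8 of the 10 genes, out of 18194 genes named on the array. Hsf1 and Hsp90ab1 were not analysed here. All 8 measured genes passed the filter on level used for gene counts, a highest value over the arrays of at least 6.05 on the log2 scale (the median of all values), as did 12098 genes in all. The cells were of the CM7/1 background and carried either Hey1 or Hey2, repressor genes of the Notch pathway, for overexpression, and are referred to by that gene as Hey1 or Hey2 line. Each line was profiled once without induction and once after 48 h of doxycycline at 1000 ng/ml, which makes 4 groups of 1 array, uninduced and labelled induced in each line. Both labelled induced arrays were of doxycycline-treated cells, and on these arrays the effects of the drug and of an induced factor cannot be told apart. The promoter that drives each factor, and whether a line is 1 clone, are not stated in the labels.

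Cytosolic heat shock proteins are molecular chaperones that bind unfolded or newly made proteins. Hsp70 proteins work in cycles of ATP binding and hydrolysis, which J-proteins such as Dnajb1 start and nucleotide exchange factors such as Hsph1 and Bag3 reset, and Hsp90 proteins act later on signalling proteins and kinases. When unfolded proteins build up, heat shock factor 1 binds heat shock elements, repeats of the bases GAA in alternating orientation, and raises the transcription of many of these genes together. Embryonic stem cells are known for high constitutive levels of several chaperones.

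The arrays showed the markers of the labelled cell type and did not test the labelled overexpression. All 9 embryonic stem cell markers lay above the level filter on every array, the lowest value being 10.9. Of 8 fibroblast markers 2 reached it on any array, Col1a2 (highest value 6.27) and Thy1, and that list's mean was 5.41, 5.48, 5.34 and 5.22 on the uninduced and labelled induced arrays of the Hey1 line and then those of the Hey2 line. Thy1 read 7.13, 7.80, 5.51 and 5.73 in that order, with the arrays ranked as for Hspa1a below. That ranking was shown by 9.32% of all genes compared and by no other marker of the fibroblast list. Col1a2 read 6.04, 6.13, 6.27 and 5.89. Of the endoderm, neural and cardiac markers 2 of 6, 3 of 4 and 3 of 6 reached the filter on any array. Of these, the endoderm gene Sox7 (6.03, 6.51, 5.44 and 6.62) and the cardiac gene Myh6 (6.07, 6.53, 5.60 and 6.48) read higher in the labelled induced array of both lines. The cardiac gene Nkx2-5 (6.23, 5.71, 6.50 and 5.75), Sox17, Pax6 and Tubb3 read lower there in both lines, and Map2 and Tbx5 had opposite signs. The mean of the cardiac list was 5.78, 5.68, 5.75 and 5.57, and that of the endoderm list 5.59, 5.63, 5.61 and 5.69. The Hey1 probe set differed by -0.23 between the arrays of the Hey1 line and the Hey2 probe set by 0.09 between those of the Hey2 line, the latter below the level filter on all 4 arrays (4.25 to 4.84). No label says whether the probe sets can detect the transgenes, and the array labelled induced is named as such throughout. As a sign of RNA quality, the 3' minus 5' control difference ran from 0.012 to 0.042 for Gapdh and from 0.39 to 0.51 for Actb over the 4 arrays. For Tfrc it was 0.95 and 0.84 in the Hey1 line and 0.67 and 0.96 in the Hey2 line. For Pcx it was 1.38 and 1.43, then 1.33 and 1.56, higher in the labelled induced array of both lines. The part of these controls and markers in any heat shock difference was not tested.

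The stress-inducible Hsp70 genes had the largest differences of the members in each line, both higher in the labelled induced array. Hspa1a, which encodes the major stress-inducible Hsp70, read 6.64 on the log2 scale in Hey1 uninduced, 9.08 in Hey1 induced, 5.48 in Hey2 uninduced and 6.30 in Hey2 induced cells. The Hey1 induced array therefore stood far above the other arrays, and the Hey2 uninduced array was below the level filter. The difference between labelled induced and uninduced cells was 2.44 (5.43-fold) in the Hey1 line, the 8th highest of 12098 genes, and 0.83 (1.77-fold) in the Hey2 line, the 157th highest. The Hey1-line difference exceeded that of the Hey2 line by 1.62, the 14th highest such gap. With 1 array per group these differences have no replicate check, and in bulk RNA a larger share of cells with the transcript and more transcript per cell cannot be told apart. Since the differences also chose the genes, they are a description. The Hey2-line value turned to -0.34 when the uninduced array of the Hey1 line served as the reference.

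Hspa1b, the neighbouring gene for a nearly identical protein, differed in the same direction by less. Its highest probe set read 9.84 in Hey1 uninduced, 10.65 in Hey1 induced, 8.95 in Hey2 uninduced and 9.43 in Hey2 induced cells. That is a difference of 0.81 (1.76-fold) in Hey1-line cells and 0.47 (1.39-fold) in Hey2-line cells. All 3 Hspa1b probe sets differed alike, by 0.78 to 0.91 in Hey1-line cells and 0.29 to 0.47 in Hey2-line cells. Across the 4 probe sets of the pair the arrays had 1 order, lowest in Hey2 uninduced, then Hey2 induced, Hey1 uninduced and Hey1 induced, an order shown by 9.32% of all genes compared and by 2 of the 16 probe sets of the other members. The labelled induced Hey2 array thus read below the uninduced Hey1 array at all 4 probe sets, with differences of -0.49 to -0.34. The 2 genes are near-identical copies, so which copy each probe set reads, and how the difference divides between them, is uncertain.

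**Figure D1:**
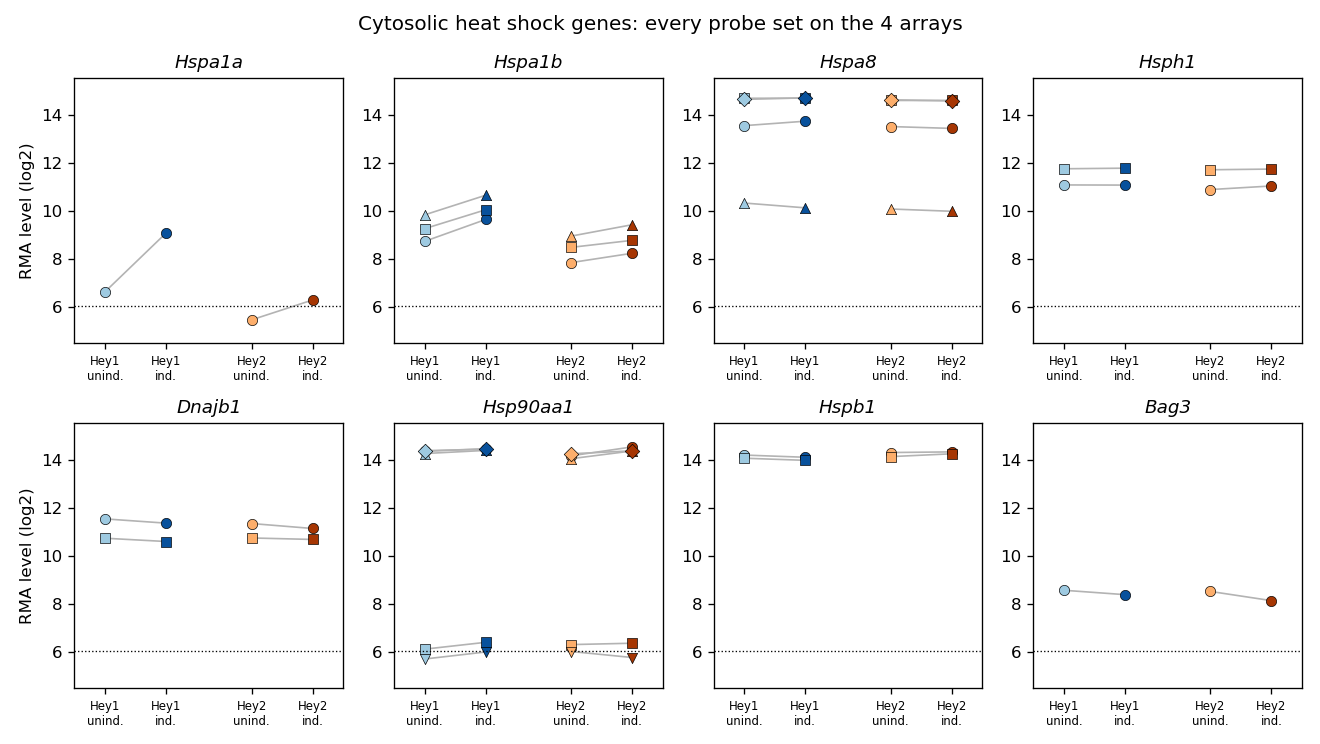
RMA level (log2) of every probe set of the 8 measured heat shock genes on the uninduced and induced arrays of both lines, with 1 marker shape per probe set, a line joining the arrays of a line of cells and a dotted line at the level filter of 6.05. Hspa1a reads 6.64 and 9.08 on the Hey1-line arrays and the Hspa1b probe sets slope the same way. Slopes of the other genes are smaller than these in the Hey1 line. On the Hey2-line arrays Hsp90aa1 (0.37) and Bag3 (-0.38) differ about as much as Hspa1b.

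The sequences before the start sites of the pair are shown because both genes differed in the same direction and share almost all of this sequence. RefSeq windows of the mouse assembly GRCm38.p6, from 250 bases before to 50 after each gene's start, were matched for 6 of the measured genes. The part before the start is printed 5′ to 3′ on the minus strand, chr17:34972157-34972406 for Hspa1a and chr17:34959239-34959488 for Hspa1b, with the match to the heat shock element in capitals.
Hspa1a: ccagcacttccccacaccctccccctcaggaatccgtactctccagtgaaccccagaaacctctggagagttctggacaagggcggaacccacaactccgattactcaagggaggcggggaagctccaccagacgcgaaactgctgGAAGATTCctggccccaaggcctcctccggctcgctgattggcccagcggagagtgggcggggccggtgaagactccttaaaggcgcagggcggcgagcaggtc
Hspa1b: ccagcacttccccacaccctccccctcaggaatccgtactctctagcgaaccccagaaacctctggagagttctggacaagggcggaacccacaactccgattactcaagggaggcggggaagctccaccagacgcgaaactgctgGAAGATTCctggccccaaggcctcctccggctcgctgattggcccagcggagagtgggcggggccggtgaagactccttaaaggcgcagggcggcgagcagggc
The stretches were identical at 247 of 250 bases. The differences, with the Hspa1a base first and positions counted from 1 at the 5′ end, were C44T, T47C and T249G. Each held 1 match to GAANNTTC, starting 104 bases before the start, outside the differing positions.

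Matches to the element were also found in other members. The letters searched were GAANNTTC and TTCNNGAA, each its own reverse complement, and the longer 3-unit heat shock element on both strands, whose matches contain matches to the shorter forms. One or both of the shorter forms were present in 5 of the 6 windows, the exception being Dnajb1 (the first listed window where a gene had more), and in 15.1% of all 32851 windows of this length. Hspb1 and Hsph1 held 2 or more such matches, as did 1.96% of all windows, and Hsph1 also held the longer form, found in 0.603% of them. Those of Hspb1 lie 117 and 97 bases before the start, in chr5:135887769-135887858 on the plus strand. The match of Hsph1 that precedes its start lies 33 bases before it, in chr5:149636337-149636401 on the minus strand, and the others follow the start. Both stretches are shown since they hold matches before the start. Hspb1 was at the 99.5th percentile over the probe sets of the array, where an array can compress differences. The part of the element in any difference on the arrays was not tested.
Hspb1: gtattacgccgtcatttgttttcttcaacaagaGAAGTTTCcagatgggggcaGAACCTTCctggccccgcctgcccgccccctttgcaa
Hsph1: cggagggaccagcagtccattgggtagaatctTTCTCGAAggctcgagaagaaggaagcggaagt
The single match of Bag3 was 43 bases after the start. CACGTG, the palindromic E-box and a kind of site that Hey factors can bind, was present in 1 of the 6 windows, that of Hsph1, and in 7.15% of all windows. CCAAT, on either strand, was present in 4 of the 6 (Hspa1a, Hspa1b, Hsph1 and Dnajb1) and in 37.4% of all, and TATAAA in 0 of the 6 and 13.6% of all. A match describes letters in a window and does not show that a factor binds there.

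**Figure D2:**
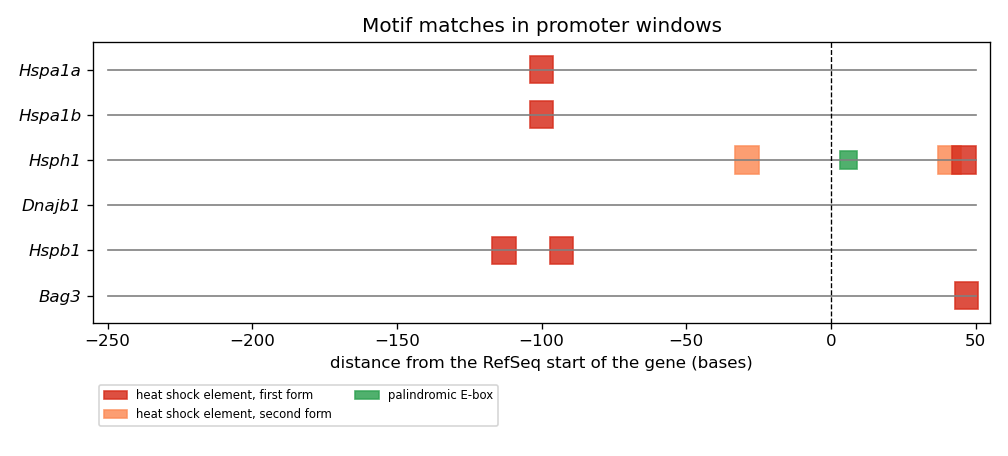
Positions of matches to the heat shock element (first form GAANNTTC, second form TTCNNGAA) and to the palindromic E-box in the promoter windows of 6 heat shock genes, as distance in bases from the RefSeq start (dashed line). Hspa1a and Hspa1b carry 1 match at the same distance, and Hsph1 and Hspb1 carry more.

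Hspa8, the constitutive Hsp70 of the cytosol, and Hsph1, an Hsp110 that exchanges nucleotide on Hsp70, differed little. The highest of 4 Hspa8 probe sets read 14.67, 14.68, 14.58 and 14.59 on the arrays in the same order (uninduced and labelled induced Hey1, then Hey2), differences of 0.0054 and 0.0027. Its mean level was at the 99.8th percentile over the probe sets of the array, near the top of the scale (15.2), where an array can compress differences. The dimmer Hspa8 probe sets ran from -0.20 to 0.18 in Hey1-line cells, and from -0.095 to -0.048 in Hey2-line cells, without a common direction in the former. Hsph1 read 11.75, 11.77, 11.71 and 11.74 on the same arrays, differences of 0.025 and 0.029, and its other probe set had -0.0064 and 0.15. The spread of differences over all genes, as a scaled median absolute deviation, was 0.16 in Hey1-line cells and 0.22 in Hey2-line cells. Apart from the Hey1-line values -0.20 and 0.18, the Hspa8 and Hsph1 differences lay inside it.

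Dnajb1 and Bag3, which act on Hsp70 as J-protein and as nucleotide exchange factor, read slightly lower in the labelled induced array of both lines. Dnajb1 read 11.54 and 11.36 in the Hey1 line and 11.34 and 11.14 in the Hey2 line, differences of -0.18 and -0.21, and its other probe set had -0.14 and -0.062. Bag3 read 8.57 and 8.39 in the Hey1 line and 8.53 and 8.14 in the Hey2 line. Its differences of -0.18 and -0.38 put it 1645th and 1054th from the lowest of 12098 genes. Both genes were thus on the opposite side of 0 from Hspa1a and Hspa1b in both lines.

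Hsp90aa1, the stress-responsive Hsp90, was somewhat higher in the labelled induced Hey2 array at its brightest probe sets, and Hspb1, a small heat shock protein that holds unfolded proteins without ATP, was near 0 in both lines. The highest of 5 Hsp90aa1 probe sets read 14.37 and 14.42 in the Hey1 line and 14.16 and 14.52 in the Hey2 line, differences of 0.053 and 0.37. The next probe sets by level, nearly as bright, had 0.13 and 0.11 for Hey1 and 0.32 and 0.12 for Hey2. The remaining ones lay at 6.31 and 5.89 on average, around the level filter, and had 0.28 and 0.29 between the Hey1-line arrays and 0.057 and -0.25 between the Hey2-line arrays. With its probe sets averaged Hsp90aa1 had 0.17 for Hey1 and 0.12 for Hey2, so which line differed more depends on the probe sets. Hspb1 read 14.19 and 14.09 in the Hey1 line and 14.29 and 14.32 in the Hey2 line, differences of -0.092 and 0.027. Its other probe set had -0.088 and 0.12, of the same signs.

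Counted as a group, 5 of the 8 measured genes were above 0 in Hey1-line cells and 6 in Hey2-line cells, where 46.8% and 45.6% of all genes compared were. In the Hey1 line 1 gene, Hspa1a, was at least 2-fold higher (0.438% of all genes), and Hspa1a and Hspa1b were at least 1.5-fold higher (1.84% of all genes). In the Hey2 line 0 members were 2-fold higher (0.686% of all genes) and Hspa1a alone was 1.5-fold higher (3.02% of all genes). No member was 1.5-fold lower in either line, as 0.587% and 2.46% of all genes were. The median of the 8 differences was 0.015 in Hey1-line cells and 0.028 in Hey2-line cells, beside -0.012 and -0.022 over all genes. Without the Hspa1 pair the 6 other members ran from -0.18 to 0.053 in Hey1-line cells and from -0.38 to 0.37 in Hey2-line cells. These counts come from the contrasts that chose the genes and support nothing further.

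**Figure D3:**
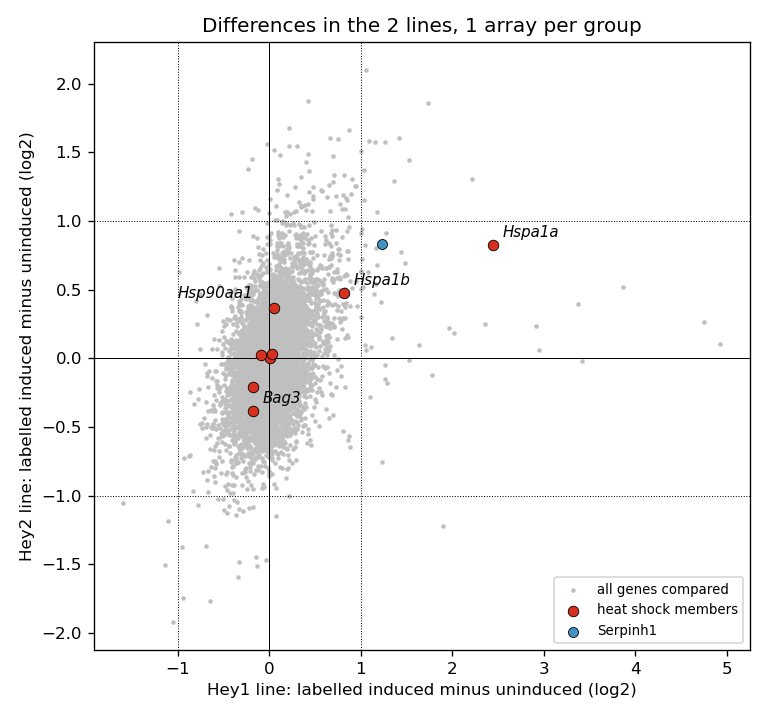
Difference of labelled induced minus uninduced cells (log2) in the Hey1 line (x axis) and the Hey2 line (y axis) for all 12098 genes compared (grey), the 8 heat shock genes (red) and Serpinh1 (blue), with dotted lines at 2-fold. Hspa1a lies far to the right at 2.44 and 0.83, Hspa1b is at the right edge of the main cloud, and the other members lie inside the cloud.

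The lines were compared on the same 4 arrays. This contrast is not independent of the choice of genes, which used the levels on all arrays, so its values are given as a description and its p-values support nothing on their own. Of the 8 members 1 was above 0 in the uninduced Hey2 minus the uninduced Hey1 array, where 53.7% of all genes were. Between these arrays Hspa1a differed by -1.16 (2.24-fold lower in the Hey2 line), a size that is uncertain since the Hey2 value of 5.48 lay below the level filter, and Hspa1b 1.84-fold lower (-0.88). These were the 2 members at least 1.5-fold lower, as 4.42% of all genes were, and Hspa1a was the 1 member at least 2-fold lower (1.13% of all genes), a call that ended with an offset of 32 on the linear scale (-0.78). Between the labelled induced arrays the gaps were -2.78 and -1.22. In the limma fit over both pairs of arrays, with induction as a term, Hspa1b was lower in the Hey2 line by -1.05 ± 0.12 (SE, adjusted p = 0.053) and Hspa1a by -1.97 ± 0.42 (adjusted p = 0.087). Neither passed 0.05, and no member did, while 111 of 12098 genes (0.918%) passed. At an unadjusted p of 0.05 these 2 of the 8 members passed, as did 28.3% of all genes. For the 6 other members the line difference ran from -0.21 for Dnajb1 to 0.16 for Hspb1, with adjusted p from 0.20 to 0.78. The fit left 1 residual degree of freedom for each gene. With 1 array per group, that residual is how unequal the labelled induced minus uninduced differences were in the 2 lines (1.62 for Hspa1a). The standard errors and p-values rest on it, moderated over all genes, and measure no spread among replicates. Separate cultures are not stated, and how these samples vary may be technical. Fits with 1 array left out also dropped the induction term, so their gaps take in differences between labelled induced and uninduced cells. The gap of Hspa1a then lay between -3.19 (without Hey1 uninduced) and -0.75 (without Hey1 induced) and that of Hspa1b between -1.46 and -0.64. Dropping the term alone could not change the gaps (-1.97 and -1.05), since each line has 1 uninduced and 1 labelled induced array.

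**Figure D4:**
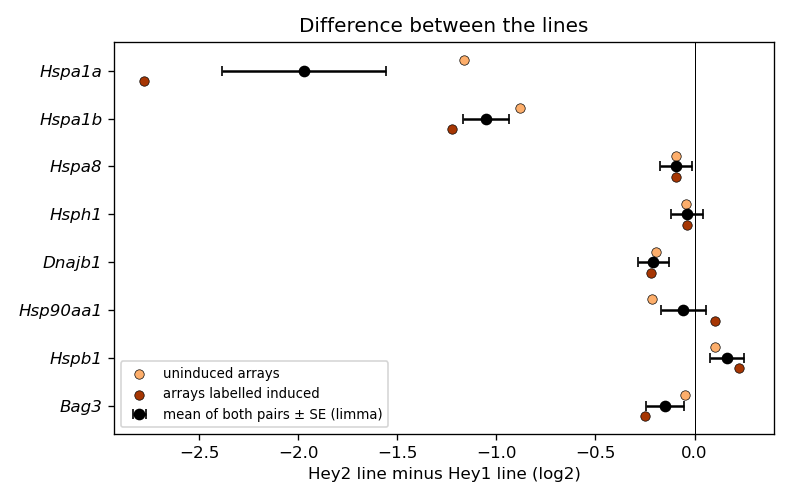
Hey2 line minus Hey1 line (log2) for the 8 heat shock genes, from the uninduced arrays (light points), the arrays labelled induced (dark points) and their mean with its standard error from limma (black, 4 arrays). Hspa1a and Hspa1b lie at -1.97 and -1.05, away from the other genes, which lie between -0.21 and 0.16.

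The wider chaperone network was read from 8 lists of genes grouped by role, of which 72 of 85 genes were compared. In the Hey1 line 3 of the 72 were at least 1.5-fold higher and 0 lower, and in the Hey2 line 4 were higher and 0 lower, beside 1.84% and 3.02% of all genes higher. Their median was 0.0087 in Hey1-line cells and 0.010 in Hey2-line cells, again close to that of all genes. Of the heat shock factor list 3 of 5 genes were compared, and 0 were past 1.5-fold. Its largest values were those of Hsf2, another heat shock factor, at 0.13 and 0.30, although its other probe set had -0.19 and 0.33.

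Among other cytosolic Hsp70 and Hsp110 genes, with 5 of 7 compared, Hspa4l, an Hsp110 expressed in germ cells, was the 1 past 1.5-fold. It read 6.47 and 6.97 in the Hey1 line (0.50) and 6.09 and 6.98 in the Hey2 line (0.89), and its 4 other probe sets ran from -0.059 to 0.37 and from 0.44 to 0.72. The labelled induced Hey2 array was therefore the higher of its line at every Hspa4l probe set. Most of the other Hspa4l probe sets lay below the level filter on every array, with values as low as 4.32. Hspa14, a ribosome-associated Hsp70, had 0.10 and 0.20, and another of its probe sets had 0.37 and -0.46.

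Of the 14 J-proteins, each read at its probe set with the highest mean, 1 was past 1.5-fold in each line, in both cases higher. Dnaja4, with 1 array of each line below the level filter, had 0.65 and -0.43 in the Hey1 and Hey2 lines. Its other probe sets, below the level filter on every array, had -0.068 and -0.28 and, with both higher, 0.34 and 0.85. Dnajc2, a J-protein of the ribosome, had 0.12 and 0.61. Dnajb6, a suppressor of protein aggregation, was lower in both lines, with -0.31 and -0.41, and its 3 other probe sets were also lower in both. The largest of their differences, at a probe set reading 8.94 to 9.74, were -0.55 and -0.79, the latter past 1.5-fold lower.

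The Hsp70 cofactors (8 compared), the Hsp90 co-chaperones (16 of 19) and the TRiC chaperonin with prefoldin (14) had 0 genes past 1.5-fold in either line. Their medians were 0.0045, -0.0096 and 0.017 in the Hey1 line and -0.0010, -0.038 and 0.065 in the Hey2 line. Bag4 (0.13 and 0.14) and Bag5 (-0.17 and -0.19) had the largest mean differences of the cofactors, Cdc37l1 (-0.24 and -0.10) and Fkbp8 (0.097 and 0.26) of the co-chaperones, and Cct8 (0.14 and 0.21) and Pfdn6 (-0.16 and -0.15) of the folding complexes. The housekeeping list, with 13 genes compared, also had 0 past 1.5-fold. Of all genes, 1.84% were higher and 0.587% lower by that much in the Hey1 line, and 3.02% and 2.46% in the Hey2 line. Gusb (0.17 and 0.18) and Polr2a (-0.082 and -0.21) had the list's largest mean differences. B2m had its largest difference in each line, with opposite signs (0.19 and -0.34). The other Polr2a probe set had -0.21 and -0.64, the latter past 1.5-fold lower.

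The small heat shock proteins had the highest list median in each line, and the other heat-inducible genes the next highest in the Hey1 line. For the 6 of 9 small heat shock protein genes compared the median was 0.28 in Hey1-line cells and 0.38 in Hey2-line cells, with 5 and 4 genes above 0, and Hspb6 (-0.0045 and 0.69) was the 1 past 1.5-fold. Cryab, the alpha-B crystallin gene, had 0.41 and 0.51, and its other probe sets ran as low as -0.22 and -0.063. Hspb11 had 0.25 and 0.47. The genes of this list below 0 in the Hey2 line were Hspb8 (0.31 and -0.49) and Cryaa (0.047 and -0.25). For the 6 of 9 other heat-inducible genes compared the medians were 0.19 and 0.043. Serpinh1, which encodes the collagen chaperone Hsp47 of the endoplasmic reticulum, read 7.76 and 8.99 in the Hey1 line and 7.36 and 8.19 in the Hey2 line. Its differences of 1.23 and 0.84 made it the 1 gene of these lists past 2-fold in the Hey1 line, and its other probe set had 1.60 and 1.31. Hmox1, the haem oxygenase gene, had 0.60 and 0.33.

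**Figure D5:**
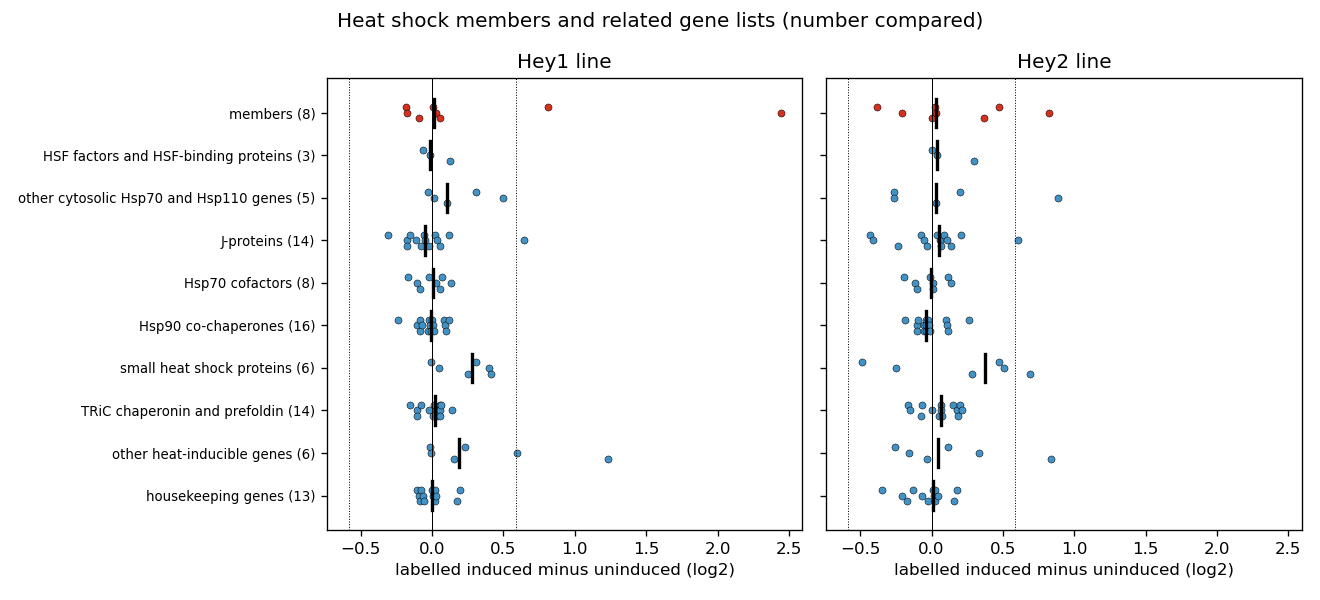
Difference of labelled induced minus uninduced cells (log2) in the Hey1 line (left) and the Hey2 line (right) for the heat shock members (red) and 9 other lists (blue), each point a gene and each black bar the list's median, with dotted lines at 1.5-fold. Hspa1a at 2.44 and Serpinh1 at 1.23 stand out in the Hey1 line, and most co-chaperones, cofactors and folding complexes lie close to 0.

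The genes whose profile over the 4 arrays was most like that of Hspa1a were found by the Euclidean distance between log2 profiles, each centred on its own mean. They were Psors1c2 (distance 0.80), the prostaglandin synthase gene Ptgs2 (0.83), the nuclear body gene Sp110 (0.86), Ms4a4d (0.95), Ubtfl1 (1.01) and the germ cell ADP/ATP carrier gene Slc25a31 (1.22). Hspa1b, whose range over the arrays was smaller, lay at 1.49. Psors1c2 and Sp110 differed by 1.96 and 2.01 in the Hey1 line and by 0.22 and 0.18 in the Hey2 line. Ptgs2 and Slc25a31 differed about equally in both, by 1.36 and 1.30 and by 1.18 and 1.07. Of the genes named, only Slc25a31 reached the level filter on all 4 arrays. Sp110, Ms4a4d and Ubtfl1 reached it on the Hey1 induced array alone, and Psors1c2 and Ptgs2 on the Hey1-line arrays alone. Their other readings went as low as 3.27 (Ubtfl1, Hey2 induced), and the sizes of such differences are uncertain. These 4-point profiles are a description of these arrays and carry no test.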

How the data were processed

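Total RNA of 4 samples was hybridised to 1 single-colour array each. As deposited, the authors' values are log2 summaries per probe set from RMA (background correction, quantile normalisation, probe summary), per the submitters' processing notes. No source used here names its version or chip description file, and the range of 2.67 to 15.2 gave the log2 scale. The arrays share a single distribution, which hides any shift common to all genes. Groups came from the sample titles.

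Of 45101 probe sets, 34958 had a single gene symbol in the platform annotation, 932 several and 9211 none. Each gene was represented by its probe set with the highest mean, and genes reaching 6.05 on any array were compared. Differences within lines have 1 array per group and no test. For the line difference limma 3.58.1 (R 4.3.3) was used (lmFit, eBayes, induction as a term, Benjamini-Hochberg over 12098 genes), after a test on simulated data. Python 3.11.15 was used otherwise.

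Members and lists were chosen with earlier results of these data known. The text names all members, and per list the genes past 1.5-fold in either line (at most 6) and the 2 with the largest mean difference, plus the 6 genes nearest Hspa1a, without predicted genes and clone names. Hspb8, Cryaa and B2m were named in addition. Hspa1a, Hspa1b and other genes singled out within these were described after their values were seen. Alternatives were other level filters, cyclic loess, median centring, a linear offset, averaged or single probe sets and the other line's reference. For limma they were another prior, no induction term, and each array left out together with that term.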

Additional observations from a re-analysis of the deposited data

Results flagged for a closer look

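Members and genes named by the list rule whose differences had opposite signs in the lines were singled out. Hspb8, Cryaa and B2m, named outside that rule, also had opposite signs. Each sign rests on 1 array per group, and the difference between the lines was not tested. Hspb1 had -0.092 (Hey1 line) and 0.027 (Hey2 line), and its other probe set showed the same signs. Hsf2bp, whose product binds heat shock factor 2, had -0.066 and 0.039, and its other probe set had 0.0025 and -0.12, with both signs turned. Dnaja4 had 0.65 and -0.43, where another of its probe sets, below the level filter on every array, had 0.34 and 0.85. Hspb6, with a single probe set, had -0.0045 and 0.69.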

How the results depend on the processing

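The 1.5-fold count of members in the Hey1 line stayed at 2 under every alternative tried, as did that between the uninduced arrays, whose alternatives were added after seeing the data. Median centring could not change these counts, since the arrays share the same median, and a level filter could do so only by adding or removing a gene. The Hey2-line count went from 1 to 0 with an offset of 32 on the linear scale, where Hspa1a had 0.54, and to 0 with the other line's uninduced array as reference, where Hspa1a turned to -0.34. An offset shrinks differences of low values by construction, and the uninduced Hey1 array read 6.64 where that of the Hey2 line read 5.48. The Hey1-line difference of Hspa1a was 2.12 with the offset and 3.60 with the other reference. Among the wider lists, the Hey1-line count of 3 became 1 with the offset and 5 with the other reference, and the Hey2-line count of 4 became 2 with the 75th percentile filter (8.31), 2 with averaged probe sets and 1 with the other reference. Shares of all genes past 1.5-fold were not computed under these alternatives, so the member and list counts there have no background beside them. In the limma fit of the lines the count of members passing, 0, became 2 with the stricter filter (25.3% of all genes passing), 1 with cyclic loess (2.91%), 1 with the offset (9.32%), 1 with averaged probe sets (5.06%; Hspa1b each time, joined under the filter by Hspa1a, which reaches it on the Hey1 induced array alone) and 3 with a robust prior that follows the level (24.2%; Hspb1, Hspa1b and Dnajb1). That count stayed 0 with no level filter (0.489% of all genes passing) and without the induction term (0.0413%). The adjusted p of Hspa1b in these limma fits ran from 1.3e-05 with the robust prior to 0.17 without the induction term. Fits with 1 array left out also lacked that term and kept 1 array of a line, so only their gaps are given. The genes passing numbered 111, and from 5 to 2933 under the alternatives that used all 4 arrays. In leave-one-out fits a lone array is assumed to vary like the others. No pairing by replicate was possible because each group has a single array, whose number pairs nothing. The limma fit matched the lines only by induction, through its induction term. Signal near the top of the scale limits what Hspa8, Hsp90aa1 and Hspb1 can show.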
